A study of Solanum lycopersicum with 18 samples.

Results

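The deposited gene table of a tomato leaf RNA sequencing series lists 690 transcript models that had been added to the annotation, out of 23348 rows in all. They were chosen here by their identifier alone, which starts with BGI_novel, and no measured value entered the choice. The other 22658 rows are known genes. Each added model has 1 transcript, and neither a name nor a function is given for any of them. Identifiers are given in full at first use in a paragraph and by their last part after that (BGI_novel_G000325, then G000325).

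The libraries came from leaves of Micro-TOM (MT), a dwarf tomato cultivar used as a laboratory model, and of Micro-TOM-EX (EX). What EX stands for is not stated in the labels. Each was sampled at 0, 4 and 12 h, with 3 libraries for each of the 6 groups and 18 libraries in all. According to the growth protocol both materials grew in soil in a greenhouse under 16 h of light and received cold for these hours. The stress label instead reads control for all 9 MT libraries and cold for all 9 EX libraries, those of 0 h included, so whether the MT series was chilled is not settled by the labels. Hours of treatment and time of day moved together, and their effects cannot be told apart here. Whether the 3 libraries of each group represent different plants is not in the labels, so p-values measure only the spread between libraries, which may be technical.

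When RNA fragments align to places where an annotation lists no gene, an assembler can join them into a transcript model. Such models can be unannotated genes, long non-coding RNAs, transcripts of transposable elements, extensions of a neighbouring gene or fragments of a longer transcript. In tomato, as in many plants, genes lie densely near the ends of the chromosome arms, and broad pericentromeric regions hold few genes and many transposable elements. Several models of 1 locus share sequence, so the fragments have to be divided among them by an estimate.

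The steps between low values give a depth of 16100000 to 18100000 fragments per library, with 90.1 to 95.4% of 208 to 284 low values per library within 0.1 of a whole fragment. The 22 photosystem, light-harvesting and Rubisco genes of the leaf list summed to 48025.8 to 113286.8 FPKM (fragments scaled to transcript length and library depth) in a library, and none was below 1 FPKM on average. The 3 pollen genes of the marker list (LAT52, LAT56 and LAT59) summed to 0.08 to 2.5 FPKM. The ripe fruit list held E8 and Psy1, of which 1 was below 1 FPKM on average. Their sum moved with time, from 1.74 to 3.17 FPKM at 0 h to 24.8 to 65.6 FPKM at 4 and 12 h. It thus follows mainly 1 gene, and its part in the results below was not tested. In the root pair, NRT2.2 and TIP2-2, 1 gene was also below 1 FPKM on average. The sum of this pair lay between 128.1 and 702.9 FPKM, with the highest value in MT at 4 h, and its part was likewise not tested. On the second principal component of all genes, the first MT libraries of 0 h and of 4 h stood apart, at 61.9 and 52.6 against -40.7 to 14.3 for the others. Counts that involve MT are therefore also given without these 2 libraries. In bulk leaf tissue, fewer cells of a type and less RNA per cell cannot be told apart.

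The added models were about as long as known genes but far more often unspliced. Their transcripts had a median of 1598.5 bases (quartiles 885.2 and 3026.5, range 203 to 59588), against 1688.5 bases (1151 to 2461) in known genes. The 205 known genes that a reference table classes as long non-coding RNA had a median of 871 bases. Of the models, 255 (37.0%) were as long as their span on the chromosome and so had no intron, against 13.7% of known genes and 2.44% of the long non-coding class. Unspliced models were shorter than spliced ones, with medians of 1096 and 1967 bases. The strand was not given for 147 models, all of them unspliced, while 300 lay on the forward and 243 on the reverse strand. The shortest were BGI_novel_G000403 (203 bases, chromosome 7), G000632 (205, chromosome 12), G000138 (217, chromosome 3), G000034 (218, chromosome 1) and G000082 (220, chromosome 2). G000034 was above 0 in only 2 libraries, both EX at 12 h.

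Coordinates come from the deposited table, for which the sources used here do not give a genome build. All 12 chromosomes held added models, from 36 on chromosome 8 to 78 on chromosome 9. Per 100 genes listed on a chromosome, models numbered 1.85 on chromosome 1, 2.16 on chromosome 8, 3.93 on chromosome 12 and 4.61 on chromosome 9. Unplaced scaffolds held 16 models (8.38 per 100 genes), and 13 more lay on the chloroplast genome, for which the table lists no known gene.

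The models lay in gene-poor surroundings more often than known genes did. The median number of known genes within 500 kb on each side was 42 for a model and 91 for a known gene. At most 10 known genes lay in that window for 224 of 667 models (33.6%), against 8.58% of known genes. For 323 models (46.8%, against 23.7% of known genes) the nearest known gene was farther than 5 kb, and the median window of these held 9 known genes. At the other end, 48 models overlapped a known gene on the same strand, 9 on the opposite strand and 4 without a strand, and 128 lay within 1 kb of one. Together these 189 models were 27.4% of all, against 41.4% of known genes. The library protocol in the labels does not state whether strand was kept, so reads of opposite-strand overlaps cannot be told apart.

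**Figure D1:**
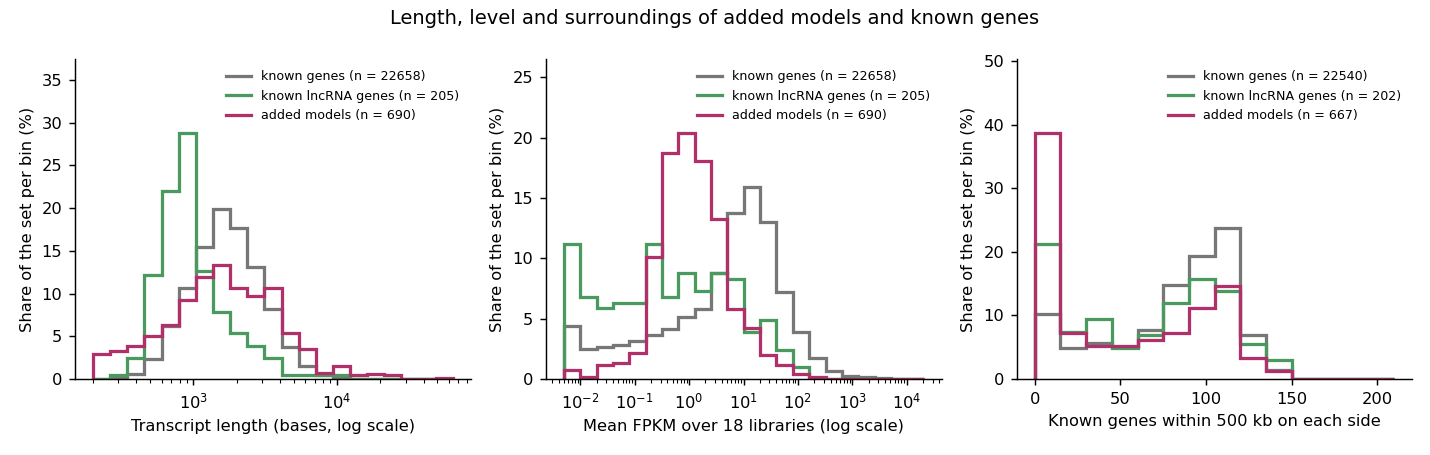
Transcript length in bases (log axis), mean FPKM over 18 libraries (log axis, values under 0.005 drawn at 0.005) and known genes within 500 kb on each side, as the share in percent of added models, known genes and known long non-coding genes in each bin. The length curves of models and known genes peak close together (medians 1598.5 and 1688.5 bases), while the models sit lower in level (medians 1.05 and 7.32 FPKM) and in regions with fewer known genes (medians 42 and 91).

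Many models overlapped each other. Grouped by overlapping spans, the 690 models formed 467 loci, of which 382 held 1 model and 85 held the other 308 (44.6%). The most crowded 3 loci had 12 models each. Where a locus held several models, the leading one was not fixed. Of 74 such loci with at least 1 FPKM in all groups, 35 had the same leading model in all 6 groups, 34 had 2 leading models and 5 had 3 or more. Values of single models at such loci depend on how fragments were divided, so sums over loci are given beside the main ones.

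Levels of the added models were low. The mean over 18 libraries had a median of 1.05 FPKM (quartiles 0.468 and 2.79), against 7.32 FPKM in known genes, 8.22 in known protein-coding genes and 0.396 in known long non-coding genes. It was below 1 FPKM for 332 models (48.1%, against 26.8% of known genes and 61.0% of the long non-coding ones) and at least 10 FPKM for 55 (7.97%, against 43.3% of known genes). Values above 0 in all 18 libraries were found for 396 models (57.4%, against 81.0% of known genes), and 7 were above 0 in 1 library only. In a single library, 571 to 598 models were above 0 and 323 to 380 reached 1 FPKM. All models together made up 0.341 to 0.394% of the FPKM of a library.

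The most abundant model was BGI_novel_G000518, an unspliced transcript of 884 bases on the reverse strand of chromosome 9 (65380589 to 65381472). It read 112.45, 500.53 and 209.61 FPKM in MT at 0 h, 58.27, 147.51 and 346.73 after 4 h, then 429.98, 130.66 and 337.91 at 12 h. Its EX values were 321.8, 167.86 and 475.9 FPKM at 0 h, 429.88, 352.14 and 243.38 after 4 h, then 215.22, 153.06 and 260.1. Its groups overlapped throughout, and limma's adjusted p against 0 h was between 0.548 and 0.92 in both lines. G000175 (chromosome 3, 66796825 to 66799193) lay between 43.12 and 107.97 FPKM, again with overlapping groups. G000680 (chromosome 12, 66468642 to 66474721) had the narrowest range of the 10 most abundant models, 38.74 to 60.57 FPKM, and was 0.39 log2 units lower in MT at 4 h than at 0 h (SE 0.11, adjusted p = 0.0258). G000231 and G000229 (chromosome 4, 63752138 to 63754719 and to 63754164) overlap LOC101259629 on its own strand and read 33.57 to 225.98 and 24.02 to 136.44 FPKM. G000019 (chromosome 1, 1891608 to 1896363) lies 37 bases from LOC101257292 on the opposite strand. It read 55.67 to 109.91 FPKM in 17 libraries and was listed at 0 in library 1 of MT at 4 h, which is one of the 2 that stood apart.

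On the chloroplast genome, 13 models formed 5 loci and covered 121529 of the first 147151 bases. The chloroplast transcribes its genes in long units that are cut later, and the models there were long, from 5429 to 59588 bases. The longest of all 690, BGI_novel_G000005 (27757 to 87961), spans the shorter models G000006 and G000007 on the other strand. G000010 and G000011 cover the same interval (108280 to 133058) on opposite strands and had equal values in all 18 libraries, and G000012 (108357 to 133058) lay between 0 and 0.7 FPKM. G000006 (37626 to 58184), the second most abundant model, read 112.22, 142.38 and 100.55 FPKM in MT at 0 h and 199.08, 209.01 and 140.82 at 12 h, with 1 library of 12 h below the highest of 0 h. That difference was called (log2 0.62, SE 0.17, adjusted p = 0.0183), while the 4 h difference in MT (adjusted p = 0.199) and both EX differences from 0 h (0.551 and 0.193) were not. G000007 (68671 to 74099) lay between 28.31 and 90.23 FPKM. The 13 models summed to 219.8 ± 17.1 FPKM in MT at 0 h, 315.4 ± 93.6 at 4 h and 326.7 ± 76.4 at 12 h (SD, n = 3 each). In EX the sums were 243.5 ± 24.1, 272.8 ± 14.2 and 324.1 ± 41.5 FPKM. Whether poly(A) RNA was selected is not stated in the labels, and how chloroplast RNA entered the libraries cannot be read from these values.

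Changes were tested over the whole table with limma on log2(FPKM + 1), a scale that understates the change of low genes. The 17870 genes whose mean reached 1 FPKM in 1 or more groups entered, and called here means an adjusted p below 0.05. Of the models, 498 passed and 192 did not. Among those that passed, 233 reached 1 FPKM in every group and 81 in only 1 group, and such a model had to differ between groups to some extent.

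After 4 h, MT leaves had 85 models called against 0 h, 29 higher and 56 lower, which is 17.1% of the models tested beside 14.2% of all genes (6.73% higher and 7.43% lower). After 12 h there were 134, 47 higher and 87 lower (26.9%, beside 21.2% of all genes, 8.0% higher and 13.2% lower). In EX leaves 69 were called after 4 h, 39 higher and 30 lower (13.9%, beside 11.3%, of which 6.3% higher and 4.99% lower), and 106 after 12 h, 57 higher and 49 lower (21.3%, beside 16.6%, of which 10.1% higher and 6.54% lower). The share of models lay above that of all genes in each case, from 13.9% beside 11.3% to 26.9% beside 21.2%, and these gaps were not tested. The median log2 difference of the models was -0.09 in MT at both times and -0.02 and -0.04 in EX at 4 and 12 h. Without the 2 MT libraries that stood apart, the MT counts were 62 (28 higher, 34 lower) at 4 h and 110 (47 and 63) at 12 h. After median-of-ratios scaling, the EX count at 12 h split into 53 higher and 55 lower. Summing the models of each locus left 67 and 97 of 361 tested loci called in MT at 4 and 12 h, and 53 and 71 in EX. Shares of all genes are not given for these refits, so their counts cannot be read as particular to the models.

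Among those called, all 3 libraries lay on 1 side of those at 0 h for 77 of the 85 and 127 of the 134 in MT (90.6 and 94.8%, beside 92.5 and 94.9% of all called genes), and for 68 of the 69 and 104 of the 106 in EX (98.6 and 98.1%, beside 99.6 and 98.9%). These shares are near the background, and a call itself favours such separation. Between 4 and 12 h far fewer models were called. There were 10 in MT (8 higher and 2 lower at 12 h, 2.01% beside 0.554% of all genes, 0.162% higher and 0.392% lower) and 3 in EX, all higher (0.602% beside 0.201%, of which 0.14% higher and 0.0616% lower). The 4 h and 12 h comparisons of a line share the 0 h libraries, so each is given on its own and their calls are not compared with each other.

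By length, the models were split into 4 classes of like size. Among the 125 tested models of the longest class (3028 to 59588 bases), 3 were called higher and 28 lower in MT at 4 h (24.8%), and 5 and 15 in EX (16.0%). Of 3007 known genes in this length range, 4.56% were higher and 8.31% lower in MT (12.9%) and 5.99 and 3.96% in EX (9.94%). Of the 115 tested in the shortest class (203 to 884 bases), 7 were higher and 6 lower in each line (11.3%), beside 11.2% of 1958 known genes in MT and 8.89% in EX. At 12 h the longest class had 8 higher and 35 lower in MT (34.4%, beside 20.1% of the known genes) and 10 and 21 in EX (24.8%, beside 15.7%). These counts were not tested against each other.

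The MT and EX time courses share no library and moved largely alike. At 4 h, 37 models were called in both lines, 43.5% of the MT calls and 53.6% of the EX calls, with 16 higher in both, 20 lower in both and 1 in opposite directions. At 12 h it was 62 models, 46.3% and 58.5%, with 32 higher and 30 lower in both. For known genes the shares were 48.2 and 60.6% at 4 h and 41.3 and 52.7% at 12 h. Across the 498 models, the log2 differences of MT and EX correlated at r = 0.67 at 4 h and r = 0.75 at 12 h, against 0.74 and 0.66 across 17372 known genes. Models that share a locus also share fragments, so these are descriptions and carry no p-value. A call in MT alone was found for 79 models (15.9%, beside 13.7% of all genes) and in EX alone for 44 (8.84% beside 7.73%), and a call in 1 line only does not show that the lines differ.

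**Figure D2:**
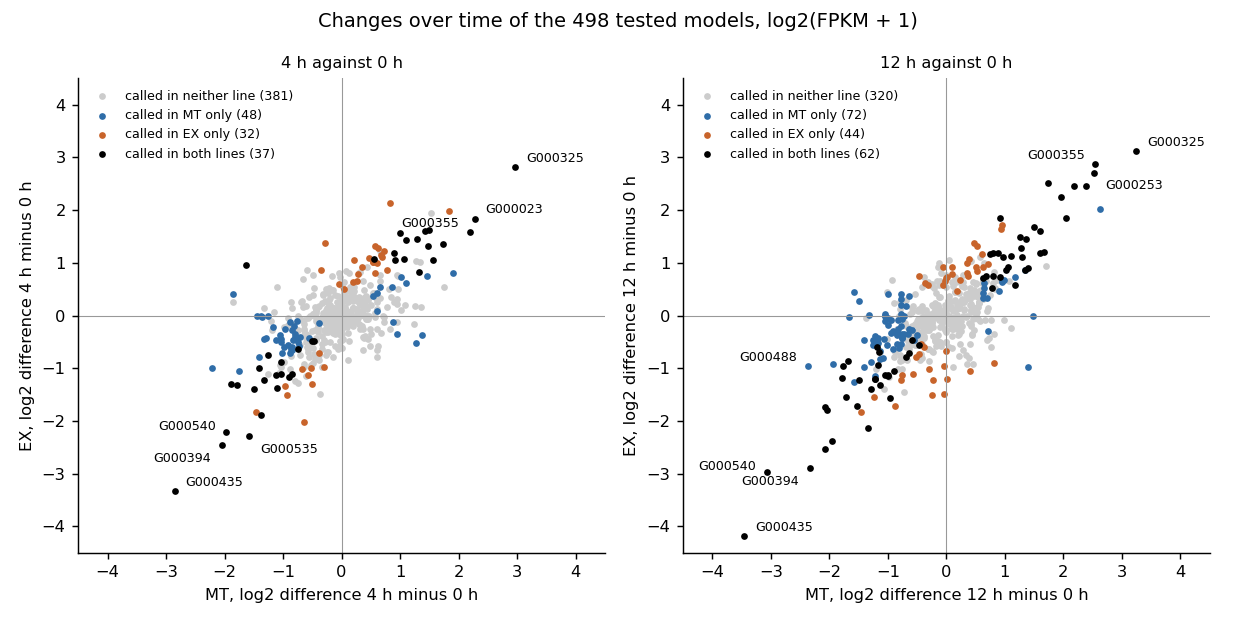
Log2 difference from 0 h on the log2(FPKM + 1) scale, MT on the horizontal and EX on the vertical axis, for 498 models at 4 h (left) and 12 h (right), coloured by the line or lines in which limma called the model. The 37 and 62 models called in both lines lie along the diagonal apart from BGI_novel_G000263 at 4 h, which was lower in MT and higher in EX.

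In the 4 comparisons with 0 h, 196 of the 498 models (39.4%, beside 32.6% of all genes) were called at least once and 30 in all 4 (6.02%, beside 5.14%). Of these 30, 12 rose throughout, at 11 loci (2.41% of the models tested, beside 2.74% of all genes), and 18 fell throughout, at 17 loci (3.61% beside 2.4%). None had mixed directions. The median log2 difference of the 12 lay between 1.38 and 1.64 in the 4 comparisons and that of the 18 between -1.49 and -1.23. Since a call was the condition for entering, these medians describe the models and support nothing further.

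The steepest rise was that of BGI_novel_G000325, an unspliced transcript of 2013 bases on the reverse strand of chromosome 6 (35210111 to 35212123). In MT it read 9.96, 9.52 and 14.29 FPKM at 0 h, 83.85, 122.8 and 80.05 after 4 h, then 94.25, 130.71 and 121.01 at 12 h. EX read 17.94, 9.78 and 19.28 FPKM at 0 h, 107.69, 135.44 and 96.58 after 4 h, then 125.62, 144.74 and 147.44 at 12 h. Every library of 4 and 12 h lay several times above every library of 0 h in both lines, and the lines overlapped at each hour. The log2 differences from 0 h were 2.97 and 3.25 in MT and 2.82 and 3.12 in EX (SE 0.24 each; adjusted p = 1.55e-06, 4.51e-07, 2.2e-06 and 5.49e-07). The model thus went from 11.3 ± 2.64 to 115.3 ± 18.9 FPKM in MT within 12 h (SD, n = 3 each). Its nearest known gene, LOC101267898, lies 14272 bases away on the same strand and rose too, from 31.23 to 33.9 FPKM at 0 h to 57.52 to 76.87 at 4 h in MT, and from 31.06 to 40.08 to 57.55 to 71.55 in EX.

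BGI_novel_G000355, a spliced model of 1030 bases on chromosome 6 (46758122 to 46760744), rose from a narrow base. It read 2.29, 1.96 and 2.19 FPKM in MT at 0 h, 15.87, 14.98 and 10.27 after 4 h, then 22.88, 21.7 and 10.55 at 12 h. In EX the values were 2.09, 2.2 and 1.78 FPKM, then 5.62, 10.67 and 8.49, then 36.45, 23.36 and 10.69. No library of 0 h exceeded 2.29 FPKM and no later one was below 5.62, although the libraries of 12 h spread more than 3-fold in EX. The log2 differences were 2.2 and 2.55 in MT (SE 0.35; adjusted p = 6.93e-04 and 1.71e-04) and 1.58 and 2.87 in EX (adjusted p = 0.00851 and 5.99e-05).

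BGI_novel_G000531 (chromosome 10, 2735674 to 2736251, strand not given) stood at 0.493 ± 0.321 FPKM in MT and 0.543 ± 0.359 in EX at 0 h. It reached 4.04 ± 1.42 and 2.95 ± 1.05 after 4 h, followed by 3.27 ± 1.19 and 3.88 ± 0.288 at 12 h (SD, n = 3 each). The log2 differences were 1.74 and 1.5 in MT and 1.35 and 1.69 in EX (SE 0.27; adjusted p between 5.03e-04 and 0.00373). Further models that rose at both times in both lines were G000515 (chromosome 9, 61926268 to 61930281), which went from 6.36 ± 0.773 to 16.7 ± 0.715 FPKM in MT and from 5.92 ± 0.165 to 16 ± 2.61 in EX at 12 h, and G000428 (chromosome 8, 55109423 to 55111040), from 0.827 ± 0.626 to 5.87 ± 0.115 and from 0.193 ± 0.195 to 4.89 ± 2.27. G000071 and G000079 (chromosome 2), G000233 (chromosome 4), G000470 (chromosome 9) and G000619 (chromosome 12) rose in all 4 comparisons by log2 0.56 to 1.67. Of these, 3 share a locus with other models. The sums were not called for the loci of G000233 and G000470 and were called for that of G000619 only in MT at 12 h (log2 0.64, adjusted p = 0.0116, locus starting with BGI_novel_G000618). The other 2 of the 12, G000250 and G000253, belong to 1 locus described below.

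Some rises reached the threshold in only some comparisons. BGI_novel_G000092 (chromosome 2, 37748448 to 37750421), 303 bases from LOC101260896 on the opposite strand, read 14.62, 10.48 and 4.03 FPKM in MT at 0 h and 47.04, 28.71 and 31.56 at 4 h, with no overlap (log2 1.90, SE 0.33, adjusted p = 0.00122). In EX it read 10, 15.84 and 9.57 FPKM at 0 h and 22.1, 19.18 and 21.49 at 4 h (log2 0.81, adjusted p = 0.142). The 3 models of its locus, which starts with BGI_novel_G000090, gave log2 1.73 in MT (adjusted p = 0.00706) and 0.79 in EX (0.23) as a sum. G000409 (chromosome 7, 66708159 to 66709749) read 2.17, 2.74 and 0.81 FPKM in MT at 0 h and 27.04, 29.08 and 4.85 at 12 h. Its call (log2 2.62, SE 0.81, adjusted p = 0.0325) was lost in 4 of the 6 fits that left out 1 of these libraries, and the sum with the other model of its locus gave the same 2.62 (adjusted p = 0.0364). G000219 (chromosome 4, 53553758 to 53554006) was listed at 0 in MT at 0 h and read 1.26 to 2.38 FPKM at 4 h, and 1 fragment is 0.442 FPKM for this model.

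**Figure D3:**
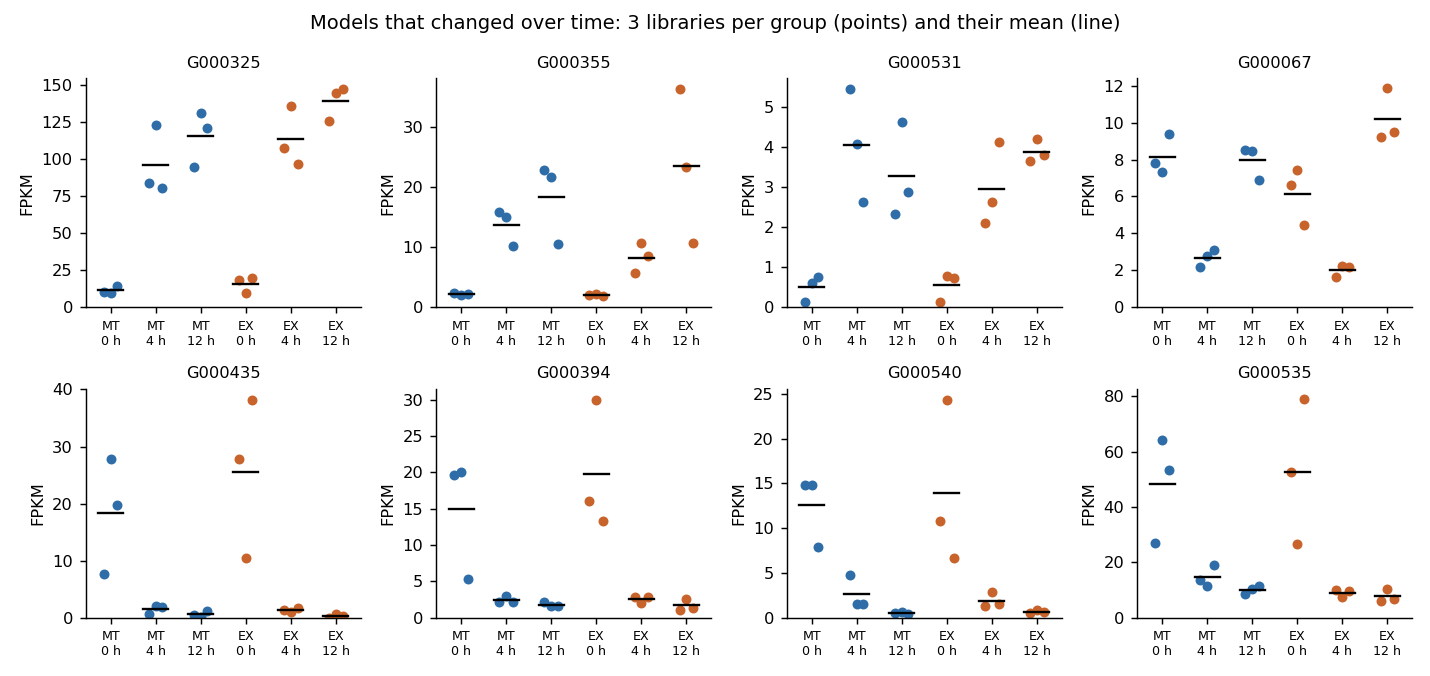
FPKM of 8 models in each of the 18 libraries (points) with group means (lines) at 0, 4 and 12 h, MT and EX in separate colours. BGI_novel_G000325, G000355 and G000531 rise in both lines, G000067 is lowest at 4 h, and G000435, G000394, G000540 and G000535 fall in both lines.

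The deepest fall was that of BGI_novel_G000435, a spliced model on the reverse strand of chromosome 8 (57632296 to 57636369). In MT it read 7.67, 27.79 and 19.8 FPKM at 0 h, 0.6, 1.99 and 1.91 after 4 h, then 0.51, 0.18 and 1.17 at 12 h. EX values were 27.9, 10.48 and 38.15 FPKM at 0 h, 1.32, 0.99 and 1.76 after 4 h, then 0, 0.57 and 0.37 at 12 h. The libraries of 0 h differed more than 3-fold among themselves, and all of them lay above every later library. The log2 differences were -2.85 and -3.46 in MT and -3.33 and -4.19 in EX (SE 0.46; adjusted p = 6.73e-04, 1.05e-04, 1.9e-04 and 1.96e-05).

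A pair of long unspliced models on chromosome 7 fell together. BGI_novel_G000394 (53570499 to 53575908) and G000395 (53588410 to 53593629) lie 12501 bases apart on opposite strands, with no known gene nearer than 130847 bases to the first. G000394 read 19.61, 20.05 and 5.39 FPKM in MT at 0 h, 2.14, 2.99 and 2.14 after 4 h, then 2.12, 1.67 and 1.61 at 12 h. In EX, G000394 stood at 16.07, 30 and 13.24 FPKM at 0 h, 2.84, 2.06 and 2.89 after 4 h, then 1.13, 2.57 and 1.36 at 12 h. Library 3 was the lowest at 0 h in both lines and still lay above all later ones. The log2 differences were -2.05 and -2.33 in MT and -2.46 and -2.90 in EX (SE 0.38; adjusted p between 1.07e-04 and 0.00206). G000395 went from 25.1 ± 13.2 to 8.09 ± 1.73 and 4.99 ± 0.371 FPKM in MT and from 29 ± 10.4 to 6.99 ± 2.03 and 4.87 ± 2.28 in EX, with log2 -1.37, -1.95, -1.88 and -2.37.

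On chromosome 10, 3 further models fell throughout. BGI_novel_G000540 (10908339 to 10912517, unspliced) went from 12.5 ± 4 to 2.61 ± 1.86 and 0.557 ± 0.107 FPKM in MT and from 13.9 ± 9.26 to 1.91 ± 0.843 and 0.683 ± 0.182 in EX (SD, n = 3 each). Its log2 differences were -1.97, -3.07, -2.21 and -2.97 (SE 0.39; adjusted p between 7.93e-05 and 0.00327). G000556 (51332561 to 51338879) fell from 9.72 ± 3.39 to 1.45 ± 0.348 FPKM in MT and from 6.62 ± 0.843 to 1.3 ± 0.231 in EX by 12 h. G000535 (3981684 to 3982777) was the most abundant of the models that fell in all comparisons. It read 26.99, 64.35 and 53.59 FPKM in MT at 0 h, 13.7, 11.61 and 19.23 after 4 h, then 8.44, 10.28 and 11.44 at 12 h, and EX went from 52.61, 26.59 and 79 to 10.03, 7.45 and 9.81 and then 6.04, 10.32 and 6.73. No later library reached the lowest value of 0 h (log2 -1.58, -2.08, -2.29 and -2.53; SE 0.35; adjusted p between 1.94e-04 and 0.0074). LOC101260872, the known gene 437 bases away on the opposite strand, lay between 43.16 and 249.29 FPKM at 0 h and between 150.6 and 437.97 later.

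Other models fell in fewer comparisons or from lower levels. BGI_novel_G000580 (chromosome 11, 5226724 to 5227521, strand not given) went from 34.8 ± 8.8 to 23.4 ± 8.77 and 9.24 ± 0.57 FPKM in MT, and its difference between 4 and 12 h (log2 -1.2, SE 0.25, adjusted p = 0.0454) was lost in 4 of 6 fits without 1 library. In EX it was at 21 ± 3.02, 9.09 ± 1.45 and 10.7 ± 3.49 FPKM (called at both times). G000063 (chromosome 1, 94732703 to 94733548) read 22.26, 22.52 and 12.89 FPKM in EX at 0 h and 3.13, 4.68 and 3.88 at 4 h (log2 -2.02, SE 0.48, adjusted p = 0.0123), a call lost in 2 of 6 such fits. G000416 (chromosome 8, 22406638 to 22414060) fell from 10.7 ± 6.48 to 1.58 ± 1.55 FPKM in MT at 4 h (log2 -2.22, SE 0.64, adjusted p = 0.0304). This call was lost in 3 of 6 such fits and without the 2 MT libraries that stood apart (log2 -1.25, adjusted p = 0.308). As a sum, the 4 models of its locus fell by 1.18 on the log2 scale (adjusted p = 0.0325). G000138 (chromosome 3, 7847206 to 7847422), 217 bases long, read 0.55, 2.6 and 1.06 FPKM in MT at 0 h and 0 in each of the 6 later MT libraries. For this model 1 fragment is 0.586 FPKM, and no library held more than an estimated 5. The estimates total 8 fragments over all MT and 3 over all EX libraries, so its values lie near the floor.

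A few models turned back between 4 and 12 h. BGI_novel_G000067 (chromosome 1, 97300132 to 97315180) overlaps LOC104644302 on the same strand. It read 7.8, 7.3 and 9.38 FPKM in MT at 0 h, 2.17, 2.78 and 3.07 after 4 h, then 8.52, 8.49 and 6.9 at 12 h. In EX the values were 6.6, 7.42 and 4.44 FPKM, then 1.61, 2.23 and 2.18, then 9.23, 11.89 and 9.5. The libraries of 4 h lay below all others in both lines, by log2 -1.32 and -1.23 against 0 h (SE 0.17; adjusted p = 1.33e-04 and 2.34e-04), and the rise from 4 to 12 h was 1.29 and 1.90 (adjusted p = 0.00237 and 7.66e-05). With BGI_novel_G000066 of the same locus, the sum changed by -0.99 and -1.02 at 4 h and by 0.87 and 1.71 from 4 to 12 h, all called. The overlapping known gene had the same course, at 10.25 to 19.85, 1.77 to 4.9 and 11.69 to 13.49 FPKM in MT and 6.83 to 11.33, 1.4 to 2.86 and 16.33 to 20.91 in EX, and reads of the overlap may be shared.

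BGI_novel_G000023 (chromosome 1, 3978972 to 3982406), which overlaps LOC101267635 on the same strand, had its highest level at 4 h. It went from 0.433 ± 0.292 to 6.67 ± 3.73 and 1.59 ± 0.804 FPKM in MT and from 0.257 ± 0.182 to 3.54 ± 0.996 and 1.23 ± 0.384 in EX (SD, n = 3 each). All libraries of 4 h lay above those of 0 h (log2 2.28 and 1.84, SE 0.35; adjusted p = 4.51e-04 and 0.00264). The 12 h levels were not called against 0 h in either line.

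At several loci both the sum and the shares of the models were followed. On chromosome 5 (6235512 to 6238776) 8 models, BGI_novel_G000248 to G000255, overlap PHO1-4 on the same strand. They lie inside the span of that gene (6235512 to 6274990), and reads of the overlap may be shared. PHO1 proteins of plants are known for exporting phosphate into the xylem. The 8 models summed to 8.59 ± 1.31, 14.5 ± 8.49 and 30.1 ± 6.12 FPKM in MT and to 7.06 ± 0.284, 19.9 ± 3.11 and 33.5 ± 6.35 in EX at 0, 4 and 12 h (SD, n = 3 each). The sum rose in MT at 12 h (log2 1.68, adjusted p = 0.00113) and in EX at 4 and 12 h (1.37 and 2.08; 0.00663 and 2.16e-04) but did not pass in MT at 4 h (0.55, 0.237). BGI_novel_G000255 held 87.2% of the sum in MT and 90.5% in EX at 0 h and 32.3 and 34.9% at 12 h, although its own level was not called at any time (log2 between -0.05 and 0.8).

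Among the other models of that locus, BGI_novel_G000253 read 0.2, 0.39 and 0.92 FPKM in MT at 0 h, 1.28, 2.58 and 2.11 after 4 h, then 6.12, 7.93 and 8.64 at 12 h. In EX it read 0.45, 0.38 and 0.43 FPKM, then 3.21, 3.49 and 2.99, then 7.21, 9.45 and 8.44. Each hour lay above the one before without overlap in both lines, and all comparisons were called, from log2 1.0 (adjusted p = 0.0027) in MT at 4 h to 2.71 (adjusted p = 2.88e-07) in EX at 12 h. The step from 4 to 12 h was 1.53 in MT and 1.14 in EX (SE 0.19; adjusted p = 0.00136 and 0.0162), the latter lost in 5 of 6 fits without 1 library. G000254 was listed at 0 in all 6 libraries of 0 h, lay between 0 and 0.96 FPKM at 4 h and reached 3.58, 2.18 and 5.44 in MT and 3.89, 4.5 and 5.24 in EX at 12 h. G000250 rose from 0.227 ± 0.0808 to 5.61 ± 1.91 FPKM in MT and from 0.13 ± 0.0529 to 5.54 ± 2.46 in EX at 12 h. PHO1-4 itself was higher at 4 h in both lines (log2 1.0 and 1.21, adjusted p = 0.0144 and 0.00482) and not at 12 h (0.61 and 0.19, adjusted p = 0.0926 and 0.652).

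On chromosome 6 (41722447 to 41729100) the 8 models BGI_novel_G000339 to BGI_novel_G000346 kept a similar sum, between 19.1 and 25.2 FPKM in the 6 group means, with no call. BGI_novel_G000339 went from 0.91, 2.25 and 1.77 FPKM in MT at 0 h to 10.42, 6.67 and 6.14 at 12 h (log2 1.73, SE 0.43, adjusted p = 0.0115). In EX it went from 0.29, 2.57 and 0 FPKM to 5.17, 6.76 and 7.11 at 4 h and 8.58, 8.29 and 8.84 at 12 h (log2 2.13 and 2.52, adjusted p = 0.00444 and 0.00107). No library of these later groups overlapped those of 0 h. Its share of the sum rose from 6.82 to 36.6% in MT and from 4.99 to 40.6% in EX. BGI_novel_G000346 fell from 38.4 to 15.3% of the sum in MT and from 30.7 to 12.5% in EX, and its level was called in MT at 12 h only (log2 -1.29, adjusted p = 0.0478; EX -0.88, adjusted p = 0.193). These shares are means and were not tested.

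On chromosome 8, BGI_novel_G000433, BGI_novel_G000434 and BGI_novel_G000435 share the locus of the deepest fall (57632296 to 57636369). BGI_novel_G000435 made up 60.5% of the sum in MT and 53.9% in EX at 0 h, and 4.31 and 2.87% at 12 h. Meanwhile BGI_novel_G000434 went from 26.7 to 75.6% in MT and from 29.3 to 80.1% in EX, without a call of its own (adjusted p between 0.471 and 0.553). The sum of the locus went from 30.5 ± 15.1 to 9.15 ± 5.52 and 14.4 ± 4 FPKM in MT and from 47.3 ± 25.9 to 12 ± 0.462 and 10.9 ± 4.47 in EX. It was called lower at 4 h in both lines (log2 -1.71 each, adjusted p = 0.042 and 0.048) and at 12 h in EX (-1.91, adjusted p = 0.0215), but not at 12 h in MT (-0.93, adjusted p = 0.226).

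The 12 models BGI_novel_G000479 to G000491 on chromosome 9 (47139046 to 47144825) fell as a locus. Their sum went from 11.1 ± 2.54 to 3.79 ± 0.923 and 3.46 ± 0.365 FPKM in MT and from 7.87 ± 0.348 to 4.28 ± 0.471 and 3.41 ± 0.552 in EX, called in all 4 comparisons (log2 -1.33, -1.42, -0.75 and -1.02; adjusted p = 1.25e-04, 5.54e-05, 0.0102 and 0.00101). Within it, G000488 read 3.62, 3.02 and 6.23 FPKM in MT at 0 h and 0 in each of the 3 at 12 h (limma adjusted p = 2.59e-04). No group of 4 or 12 h reached a mean of 1 FPKM for it. G000488 thus passed the filter only through 0 h, where it is high, and its fall is a description.

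At the start of chromosome 1 (486352 to 493543), BGI_novel_G000015, BGI_novel_G000016 and BGI_novel_G000017 overlap LOC101246079 on the same strand, and reads of the overlap may be shared. BGI_novel_G000015 read 4.36, 2.92 and 0 FPKM in MT and 2.59, 7.44 and 0.46 in EX at 0 h and was listed at 0 in all 12 libraries of 4 and 12 h. That fall was called in EX (adjusted p = 0.0424 and 0.0326) and not in MT (0.0881 and 0.0684). The model thus passed the filter of 1 FPKM only through 0 h, where it is high, and its fall is a description. BGI_novel_G000017 went from 2.41 ± 2.66 to 10.1 ± 5.92 and 10.9 ± 2.49 FPKM in MT and from 3.11 ± 3.23 to 11.2 ± 1.68 and 10.1 ± 1.15 in EX. Its call in EX at 4 h (log2 1.98, SE 0.6, adjusted p = 0.0462) was lost in 5 of 6 fits without 1 library. The sum of the 3 models was called in MT at 12 h only (log2 0.77, adjusted p = 0.0446). The known gene rose in all 4 comparisons, from 12.1 ± 3.53 to 46.7 ± 3.78 FPKM in MT and from 11.1 ± 4.61 to 34.2 ± 6.32 in EX at 4 h.

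**Figure D4:**
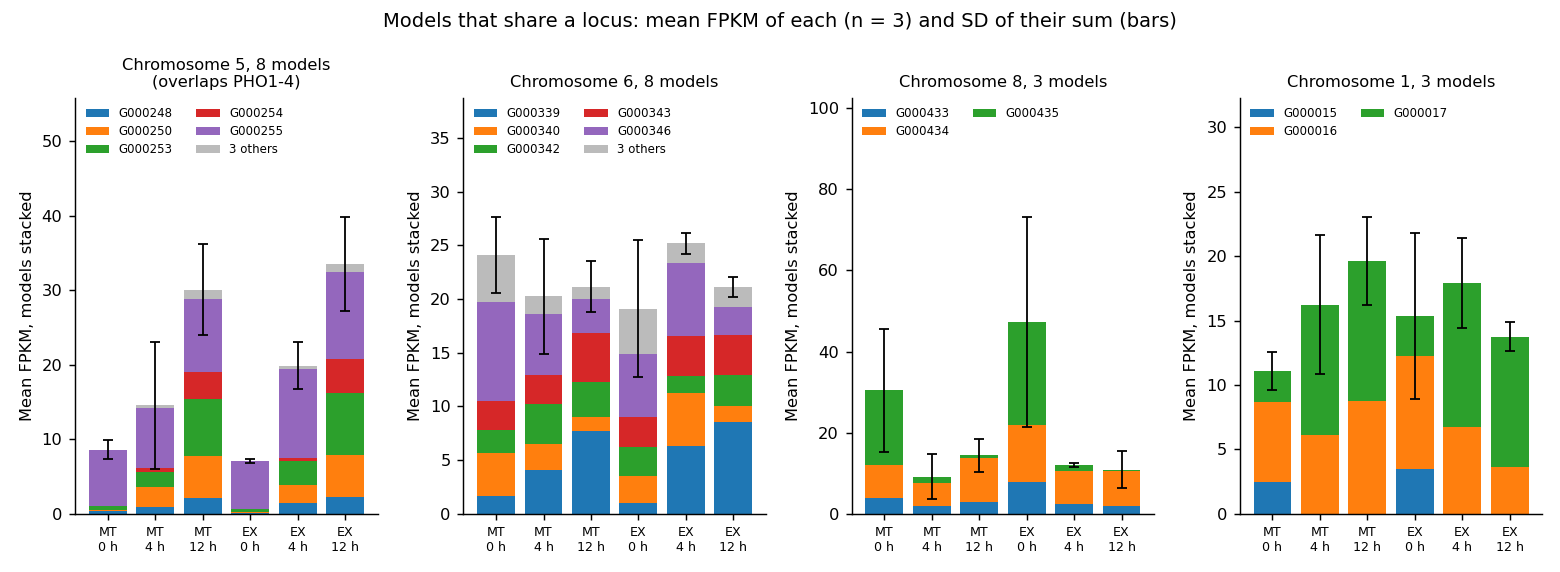
Mean FPKM of each model, stacked within 4 loci that hold several models, for the 6 groups of line and time; error bars show the SD of the locus sum over 3 libraries. The chromosome 5 locus grows with time (7.06 to 33.5 FPKM in EX), the chromosome 6 locus keeps its height while its makeup shifts, the chromosome 8 locus loses BGI_novel_G000435, and the chromosome 1 locus loses G000015.

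Fewer models differed between EX and MT leaves at any hour than between 0 h and a later hour of a line. At 0 h, 23 models were called, 12 higher and 11 lower in EX (4.62% of the models tested, beside 3.17% of all genes, 0.979% higher and 2.19% lower). Median-of-ratios scaling, which moved the median of all genes by 0.09 log2 units from -0.1, gave 13 higher and 7 lower. At 4 h there were 7, 6 higher and 1 lower (1.41% beside 0.297%, of which 0.134% higher and 0.162% lower), and at 12 h 9, 6 higher and 3 lower (1.81% beside 0.134%, of which 0.0839% higher and 0.0504% lower). In all of these the 3 libraries of one line lay on 1 side of those of the other, as they did for 98.9, 100 and 100% of all genes called at these hours. Without the 2 MT libraries that stood apart the counts were 16, 4 and 7. Single libraries weighed heavily. The 0 h count was 78 when MT library 2 was left out and 12 when EX library 1 was, and the 4 h count was 27 without MT library 2. The shares of all genes called in these refits are not given here. Whether the shifts are particular to the models cannot be told from these counts.

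Lower in EX at 0 h were models on chromosomes 5, 7 and 12. BGI_novel_G000657 (chromosome 12, 47251685 to 47256366, strand not given) read 4.48, 2.88 and 1.95 FPKM in MT and 0.03, 0.01 and 0.05 in EX at 0 h, without overlap (log2 -1.95, SE 0.22, adjusted p = 4.52e-04). It fell in MT to 0.503 ± 0.474 and 0.25 ± 0.123 FPKM at 4 and 12 h and stayed at or below 0.05 in all EX libraries. Only MT at 0 h reached a mean of 1 FPKM, so this model passed the filter through the group where it is high, and its line difference is a description. G000636 (chromosome 12, 36321802 to 36330780), 8979 bases long and unspliced, read 3.49, 2.44 and 2.14 FPKM in MT at 0 h and was listed at 0 in 8 of 9 EX libraries and at 0.01 in the last (adjusted p = 0.0012 at 0 h). G000277 (chromosome 5, 40244589 to 40251318) read 0.71, 4.23 and 1.13 FPKM in MT at 0 h and 0 in the 3 EX libraries (adjusted p = 0.0187, lost in 2 of 5 fits without 1 library). The 4 models of its locus summed to 3.75, 14.7 and 2.02 FPKM in MT at 0 h and at most 0.07 in any EX library (log2 -2.57, SE 0.42, adjusted p = 0.00609). In MT at 4 and 12 h the sum averaged 0.333 and 0.947 FPKM. Locus and model thus passed the filter through MT at 0 h alone, and their line differences are a description. G000361 (chromosome 7, 2048474 to 2048831) stood at 3.57 ± 1.69 FPKM in MT and 0.733 ± 0.645 in EX (log2 -1.4, SE 0.34, adjusted p = 0.0411), a call lost in 4 of 6 such fits.

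Higher in EX at 0 h were BGI_novel_G000553 (chromosome 10, 46397656 to 46398265), with 5.07, 4.8 and 5.44 FPKM against 0.47, 0.23 and 1.62 in MT (log2 1.86, SE 0.28, adjusted p = 0.00344). By 4 h it had risen in MT to 3.05 ± 0.431 FPKM, beside 3.36 ± 1.16 in EX. G000219 read 2.18, 5.29 and 1.63 FPKM in EX and G000668 (chromosome 12, 58437579 to 58442506) 2.28, 3.45 and 1.83, and both were listed at 0 in the 3 MT libraries of 0 h (adjusted p = 0.011 and 0.0129, the second lost in 1 of 6 fits without 1 library). Later MT libraries held both models, at 0.85 to 3.39 and 0.01 to 2.46 FPKM. For G000219, 1 fragment is 0.442 FPKM and no library held more than an estimated 12, so its values rest on few fragments. G000287 (chromosome 5, 60994860 to 60999620) stood at 4.29 ± 1.04 against 1.24 ± 0.626 FPKM at 0 h (log2 1.26, SE 0.25, adjusted p = 0.0193) and 4.19 ± 0.32 against 1.13 ± 0.801 at 4 h (log2 1.35, adjusted p = 0.0324, lost in 5 of 6 such fits). The sum with the other model of its locus was higher in EX by 1.51 and 1.4 (adjusted p = 0.0066 and 0.0286).

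BGI_novel_G000581 (chromosome 11, 7052500 to 7053194) differed between the lines at every hour. It read 0.72, 1.19 and 1.79 FPKM in MT and 3.86, 5.18 and 5 in EX at 0 h, 0.45, 1.21 and 1.2 against 5.21, 5.83 and 5.62 at 4 h, and 1.36, 1.93 and 0.92 against 3.56, 5.27 and 6.45 at 12 h. No MT library reached the lowest EX library. The log2 differences were 1.37, 1.77 and 1.33 (SE 0.23; adjusted p = 0.00734, 0.0036 and 0.0319), the last lost in 5 of 6 fits without 1 library. G000582 (7053292 to 7056674) starts 97 bases farther on the same strand. It stood at 32.2 ± 8.04, 30.8 ± 14.4 and 41.9 ± 4.44 FPKM in MT and 65.5 ± 9.29, 69.7 ± 8.59 and 60.2 ± 14.2 in EX and was not called at any hour (adjusted p = 0.0755, 0.116 and 1.0).

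The interaction of line and time asks whether the lines changed by different amounts. At 4 h it was called for 2 models (0.402% beside 0.101% of all genes), at 12 h for 0 (background 0.0224%), and for the step from 4 to 12 h for the same 2 (background 0.0392%). At an unadjusted p under 0.05 the 12 h interaction held 73 models, 14.7% of those tested beside 16.5% of all genes. BGI_novel_G000263 (chromosome 5, 22120996 to 22124567), an unspliced model of 3572 bases, read 5.65, 3.31 and 4.19 FPKM in MT at 0 h, 0.68, 1.67 and 0.12 after 4 h, then 7.69, 6.67 and 7.85 at 12 h. EX went the other way, with 2.32, 1.41 and 1.88 FPKM, then 4.04, 5.14 and 4.43, then 1.17, 1.95 and 2.02. It was thus lowest at 4 h in MT and highest at 4 h in EX, without overlap between 4 h and the other hours in either line. The interaction was 2.58 at 4 h (SE 0.36, adjusted p = 0.00708) and -3.33 from 4 to 12 h (adjusted p = 0.00238). The line difference was 1.69 at 4 h and -1.64 at 12 h (adjusted p = 0.00942 and 0.0147), lost in 3 and 4 of 6 fits without 1 library. Without the 2 MT libraries that stood apart, the 4 h values no longer passed (interaction 2.41, adjusted p = 0.0524; line difference 1.67, adjusted p = 0.0566).

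BGI_novel_G000362 (chromosome 7, 2161663 to 2165166), a spliced model of 778 bases and 1815 bases from LOC101257278, read 3.78, 2.71 and 3.97 FPKM in MT at 0 h, 0.18, 0.09 and 0.43 after 4 h, then 1.96, 1.52 and 1.83 at 12 h. EX libraries lay between 0 and 0.67 FPKM at all hours. MT exceeded EX at 0 and 12 h without overlap (log2 -2.01 and -1.13, SE 0.16; adjusted p = 7.66e-06 and 0.00702), and at 4 h both lines were low. The fall in MT at 4 h was -1.86 (adjusted p = 2.9e-06), and the interaction at 4 h was 2.28 (SE 0.23, adjusted p = 2.57e-04). EX had little room to fall, so this interaction cannot be told apart from the line difference of 0 h. Only MT at 0 and 12 h reached a mean of 1 FPKM. The model thus passed the filter where it is high, and its line differences are a description.

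**Figure D5:**
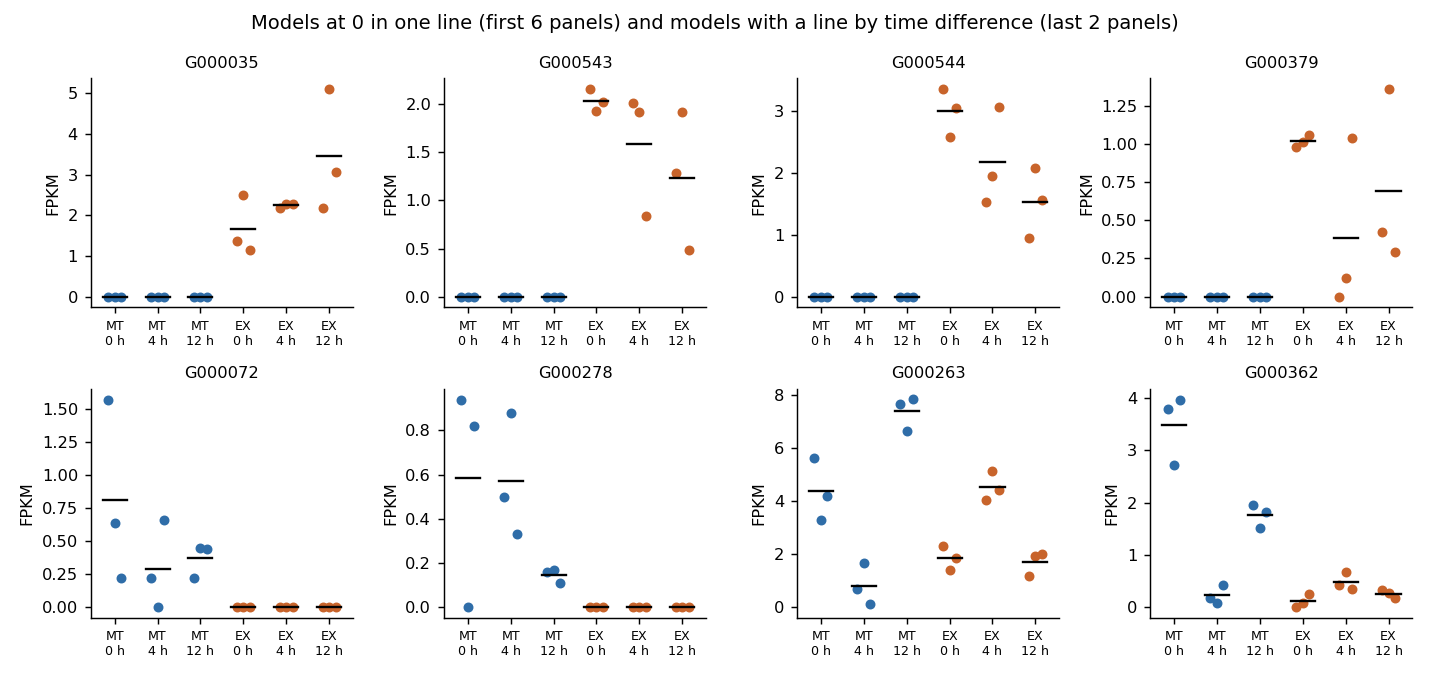
FPKM of 8 models in each of the 18 libraries (points) with group means (lines) at 0, 4 and 12 h, MT and EX in separate colours. BGI_novel_G000035, G000543, G000544 and G000379 are listed at 0 in all 9 MT libraries and G000072 and G000278 in all 9 EX libraries, G000263 moves in opposite directions in the lines, and G000362 is high in MT at 0 and 12 h.

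Some models were listed at 0 FPKM in a whole line. All 9 MT libraries were at 0 for 16 models (2.32%, beside 2.06% of known genes) and all 9 EX libraries for 12 (1.74%, beside 2.07%). These pooled shares mix levels. Of the 466 and 468 known genes at 0 in MT and EX, 458 and 455 were under 0.1 FPKM in the higher line, beside 7 and 2 models. From 0.1 to 0.5 FPKM, 4.03 and 5.65% of models were at 0 in MT and EX, beside 0.361 and 0.31% of known genes. Most of the models at 0 were rare in the other line too: 12 of the 16 and 5 of the 12 were above 0 in at most 3 of its libraries. In 7 and 4 cases other models of the same locus were above 0 in the line concerned. When at least 8 libraries of the other line had to be above 0, there remained 4 models at 0 in MT (0.58%, beside 2 of 22658 known genes or 0.00883%) and 2 at 0 in EX (0.29%, beside 3 known genes or 0.0132%). Since the models were chosen for this difference, their line values are a description without a test.

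BGI_novel_G000035, a spliced model on chromosome 1 (47236425 to 47242217), 65267 bases from the nearest known gene, was listed at 0 in every MT library. Its EX values were 1.36, 2.49 and 1.15 FPKM at 0 h, 2.19, 2.27 and 2.28 after 4 h, then 2.19, 5.11 and 3.07 at 12 h, which is about 22 to 95 fragments per library. A count of 3 fragments, the upper limit that a count of 0 allows in a library, would be 0.162 FPKM for this transcript. Within EX the level of 12 h was called above that of 0 h (log2 0.72, SE 0.21, adjusted p = 0.0262), with overlapping libraries. These limits cover counting error only, and the fragment numbers are estimates from the steps of low values.

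On chromosome 10, BGI_novel_G000543 (32402990 to 32404987) and G000544 (32402996 to 32404987) overlap, and no MT library had a value above 0 for their sum. EX sums were 5.51, 4.5 and 5.06 FPKM at 0 h, 3.54, 3.86 and 3.89 after 4 h, then 2.23, 3.99 and 2.04 at 12 h. All libraries of 0 h lay above the later ones. G000544 alone read 3.35, 2.57 and 3.04 FPKM at 0 h and 0.94, 2.07 and 1.56 at 12 h (log2 -0.68, SE 0.18, adjusted p = 0.0183). The 3-fragment limit was 0.312 FPKM for G000543 and 0.142 for G000544.

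BGI_novel_G000379 (chromosome 7, 28899164 to 28913992) spans 13045 bases of transcript, and its 3-fragment limit was 0.0134 FPKM. EX libraries read 0.98, 1.01 and 1.06 FPKM at 0 h, 0, 0.12 and 1.04 after 4 h, then 0.42, 1.36 and 0.29 at 12 h. With G000380 of the same locus, MT was not at 0: the sum lay between 0.01 and 0.04 FPKM in 8 MT libraries and was 0 in 1, while EX read 2.05, 2.04 and 1.86 FPKM at 0 h and 0.67 to 1.46 later. In the locus sum, the fall within EX was called at 4 and 12 h (log2 -0.56 and -0.61, SE 0.15; adjusted p = 0.0198 and 0.00952). The spread used takes in MT libraries at 0.04 FPKM or less and can likewise be smaller than that within EX.

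The 2 models listed at 0 in EX were scarcer in MT. BGI_novel_G000072 (chromosome 2, 18706992 to 18727709, 377 bases) read 1.57, 0.64 and 0.22 FPKM in MT at 0 h, 0.22, 0 and 0.66 after 4 h, then 0.22, 0.45 and 0.44 at 12 h, with 0 to 7 fragments behind each value. Its 3-fragment limit of 0.669 FPKM lies above most of the MT values, so an absence in EX was not detectable at this depth in a single library. G000278 (chromosome 5, 48687419 to 48703807) read 0.94, 0 and 0.82 FPKM, then 0.5, 0.88 and 0.33, then 0.16, 0.17 and 0.11, against a limit of 0.165. Neither was above 0 in all 9 MT libraries.

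A locus on chromosome 4 (65607695 to 65628908) split the MT libraries themselves. BGI_novel_G000239 and G000240, inside LOC104647208 on the same strand, summed to 0, 2.17 and 0 FPKM in MT at 0 h, 0.94, 1.81 and 0 after 4 h, then 3.82, 3.52 and 1.98 at 12 h, and to 0 in every EX library. The known gene read 22.68, 0 and 18.77 FPKM in MT at 0 h, 12.91, 0 and 15.04 at 4 h, and 0 in all 3 libraries of 12 h, and 9.45 to 18.68 in EX. The 5 MT libraries in which the known gene was listed at 0 all held the models, and of the other 4 MT libraries 1 did. Model G000240 was called between 12 h and 4 h in MT (log2 1.35, adjusted p = 0.00468), while the sum of both models was not (log2 1.19, adjusted p = 0.218). That sum averaged 0.723, 0.917 and 3.11 FPKM in MT at 0, 4 and 12 h. Model and sum thus passed the filter of 1 FPKM only through MT at 12 h, where they are high, and their differences are a description. Reads of this overlap may have been assigned to either, which was not tested.

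Changes of models and of their nearest known genes were set side by side. Taking the leading model of each locus, the 12 h differences from 0 h of 46 pairs within 1 kb correlated at r = -0.01 in MT and -0.05 in EX, against 0.09 and 0.07 for 4886 pairs of known genes at that distance. For 68 pairs farther apart but within 5 kb, r was 0.15 and 0.07 (known genes 0.08 and 0.14), and for 119 pairs beyond 5 kb 0.23 and 0.26 (known genes 0.1 and 0.1). For 23 models that overlap a known gene on the same strand, r was 0.14 and 0.35, and for 523 such pairs of known genes 0.35 and 0.39. Opposite-strand overlaps gave r = 0.93 and 0.76, but over 7 pairs only, whose reads may be shared. Pairs share the libraries, and these values are descriptions.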

How the data were processed

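Leaf RNA of 18 libraries was measured by RNA sequencing. Per the file headers, the authors deposited FPKM per gene and library in 1 table of 23348 rows. RSEM 1.2.12, DESeq2 1.4.5, Bowtie2 2.2.5 and HISAT2 2.0.4 appear in the submitters' processing notes, with no role, and a genome build was not given in these sources. All 18 value columns used matched 1 library each. The authors' own comparison columns were not used. Because the deposited unit is FPKM, the written fallback of the design (limma, values as log2(FPKM + 1)) took the place of a test on counts.

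Rows whose identifier starts with BGI_novel were the members. Members, lists and tests were chosen with earlier results of these data known. Length, span, strand and position came from the table. Chromosome numbers and biotypes came from a reference table of assembly SLM_r2.1 (21649 identifiers matched), from which no coordinate was taken. Models with overlapping spans formed a locus.

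The 17870 genes whose mean reached 1 FPKM in 1 or more of the 6 groups were fitted with limma 3.58.1 in R 4.3.3 over all 18 libraries, with 6 group means, a mean-variance trend (prior degrees of freedom 3.18) and Benjamini-Hochberg adjustment within each comparison over all genes. Calls are two-sided and need an adjusted p below 0.05. The fit was tested on simulated data. FPKM steps in transcripts of 350 to 1500 bases gave the depth estimate, whose precision is that of whole fragments.

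Named models are, in each comparison of 2 groups, up to 5 highest and 5 lowest log2 differences among called models whose libraries do not overlap and whose higher mean is 2 FPKM or more. To these were added models called in an interaction, models listed at 0 in all 9 libraries of one line and above 0 in at least 8 of the other, the 10 most abundant, and the 5 longest and 5 shortest. Models called in all 4 comparisons with 0 h, models that share a locus with a named one and the interaction between 4 and 12 h were added after their values were seen. The wounding list had 0 genes that matched a symbol. Alternatives were a pseudocount of 0.1, no filter, a filter on the mean over all libraries, median-of-ratios scaling, a replicate block, robust moderation, the compared libraries alone and each library left out. The fit without the 2 MT libraries that stood apart and the sums over loci were added after seeing the data.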

Additional observations from a re-analysis of the deposited data

Results flagged for a closer look

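The change over time differed between the lines for 2 models, by limma's test of the interaction itself. BGI_novel_G000263 had an interaction of 2.58 log2 units at 4 h (adjusted p = 0.00708) and -3.33 for the step from 4 to 12 h (adjusted p = 0.00238), with every library of 4 h on opposite sides of the other hours in MT and EX. With a pseudocount of 0.1 the first was 3.96 with adjusted p = 0.0507. Without the 2 MT libraries that stood apart it was 2.41 with adjusted p = 0.0524. BGI_novel_G000362 had an interaction of 2.28 at 4 h (adjusted p = 2.57e-04) and -1.40 for the step from 4 to 12 h (adjusted p = 0.0417), and the latter was lost in 11 of 12 fits without 1 library. Its EX libraries lay below 1 FPKM at all hours, with little room to fall. Its interaction at 4 h therefore cannot be told apart from its line difference at 0 h.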

How the results depend on the processing

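No named call changed sign under the alternatives run, but the EX calls at 12 h, 57 higher and 49 lower, split into 53 and 55 after median-of-ratios scaling. Fitting the compared libraries alone gave 19 and 69 models called in MT after 4 and 12 h, 0 and 6 between 4 and 12 h in MT and EX, 4, 0 and 3 between the lines at 0, 4 and 12 h, and 1 for the interaction at 4 h and 1 between 4 and 12 h. Without the 2 MT libraries that stood apart, 5 were called between 4 and 12 h in MT, 4 between the lines at 4 h, and 1 for each of these interactions. A pseudocount of 0.1 gave 1 between 4 and 12 h in EX and 1 for each interaction at 12 h and between 4 and 12 h. A filter on the mean over all libraries gave 13 and 5 between the lines at 0 and 12 h and 1 for the interaction between 4 and 12 h. Summing loci gave 1 between 4 and 12 h in EX and 2 loci at 0 in MT. Models at 0 in EX numbered 4 at a limit of 0.1 FPKM, 0 when all 9 MT libraries had to be above 0 and 7 when 5 had to be. Models overlapping or within 5 kb of a known gene were 49.9%. The replicate numbers did not pair the libraries throughout (r over 0.1 in 21 of 45 same-number pairs, range -0.417 to 0.568). The third libraries of all groups except EX at 4 h did correlate with each other, at r = 0.106 to 0.509. This was picked out after the values were seen and was not tested. With the replicate block the counts were 83, 135, 8, 65, 111 and 3 over time (in the order MT, then EX), 21, 6 and 8 between the lines, and 2, 0 and 1 for the interactions.

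Leaving out 1 library gave 70 to 104 and 82 to 161 models in MT at 4 and 12 h, 6 to 17 between these, 47 to 60 and 61 to 92 in EX with 2 to 5 between, 12 to 78, 4 to 27 and 3 to 7 between the lines, 2 to 4, 0 to 25 and 1 to 5 for the interactions, and 4 to 4 and 2 to 3 models at 0 in MT and EX. The libraries behind the extremes were library 1 of MT at 12 h (82), library 1 of EX at 0 h (61 and 12), MT library 2 of 0 h (78, and 25 for the interaction at 12 h) and MT library 2 of 4 h (27, 17 and 5). Of 72 calls of named models, 14 were lost with a pseudocount of 0.1, 3 without a filter, 2 after scaling, 3 with the block, 0 with robust moderation, 25 in the compared libraries alone and 8 without the 2 MT libraries. Of the 690 models, 332 lay below 1 FPKM, and 192 were not tested. No share of all genes is set beside the counts of the refits in this section, so their shifts cannot be read as particular to the models. The causes were not tested.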

Other observations

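At 0 h some models had their lowest level in different libraries. BGI_novel_G000435, BGI_novel_G000535 and BGI_novel_G000518 (of which the last was not called over time) were lowest in library 1 of MT (7.67, 26.99 and 112.45 FPKM) and library 2 of EX (10.48, 26.59 and 167.86 FPKM). BGI_novel_G000394, BGI_novel_G000395 and BGI_novel_G000540 were lowest in library 3 of both lines (5.39, 9.99 and 7.92 FPKM in MT, 13.24, 20.55 and 6.66 in EX) and highest in EX in library 2 (30, 40.65 and 24.34). LOC101260872, next to BGI_novel_G000535, was at 188.71, 144.02 and 43.16 FPKM in MT and 151.56, 249.29 and 126.2 in EX at 0 h, lowest in library 3 of each. These libraries were picked for the pattern after their values were seen, and it was not tested.

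Beside the added models, the table lists 10829 added transcripts under 5123 of the known genes (22.6%), which have no values of their own.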
